A study of Mus musculus with 71 samples.

Results

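γδ intraepithelial lymphocytes (γδ IELs) sorted from the duodenum and from the ileum were compared by single-cell RNA-sequencing. Cells were taken from 4 libraries, those of Btnl2-KO and of wild-type (WT) mice for each of the 2 segments, out of 71 libraries in the series. A barcode was kept as a cell if it held at least 500 detected genes and at least 5 UMIs (unique molecular identifiers, each standing for 1 captured RNA molecule) of Cd3d, Cd3e and Cd3g together. This kept 16245 of 16479 barcodes in these libraries, which was 3931 cells of the duodenum and 4658 of the ileum from Btnl2-KO mice, and 3953 and 3703 from WT mice. All 6 single-cell libraries, with the jejunum, held 23994 barcodes.

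Both genotypes were C57BL/6 and 8 to 10 weeks old by the labels, and the study's own text gives these mice as slightly older. The Btnl2-KO allele carries a LacZ cassette in frame with the start codon and a selection cassette that stops Btnl2 transcription, and the WT mice were cohoused littermates without it. The cells were sorted as CD45+ TCRβ- TCRγδ+, from sorts of 2 pooled mice, and the smaller portion of each sort was put into the single-cell library of its genotype and segment while the larger went into bulk RNA-sequencing. Each single-cell library was therefore 1 pool, and p-values between segments measure the spread between these pools, with the genotypes serving as the 2 replicates.

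γδ IELs lie between the epithelial cells of the gut, where most of them carry the CD8αα homodimer and the integrin αE and hold ready stores of granzymes. They are kept at the epithelium by cytokines such as IL-15 and by butyrophilin-like proteins on the epithelial cells, and they are set for rapid killing and repair rather than for recirculation. The duodenum takes up most of the dietary iron, while the ileum takes up bile acids and meets a denser microbiota.

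The libraries were alike in depth. The kept cells held 20174410 to 27541700 UMIs per library, with a median of 4865 to 5462 UMIs per cell and 3.33 to 3.56% mitochondrial UMIs, and any 2 of the 4 libraries shared 22 to 31 barcodes. Btnl2 itself, a gene of epithelial cells, gave 0 UMIs in the kept cells of 3 libraries and 1 in the WT ileum, while LacZ gave 16 UMIs in the duodenal and 20 in the ileal Btnl2-KO library and 0 in both WT libraries. The markers of γδ IELs were high in all 4 libraries. Gzma (granzyme A) stood at 31044 to 35905 CPM (UMIs scaled to the same total in every library), Cd7 at 6535 to 7121, Cd8a at 1734 to 1824 and Itgae (integrin αE) at 925 to 975. The T cell receptor genes of the γδ and αβ lineages were not analysed here, so the sort could be checked against CD3 and these markers but not against the receptor chains. Few barcodes lay near the CD3 minimum, with 10 to 24 cells per library at 5 to 7 UMIs and 4 to 8 barcodes at 2 to 4.

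UMIs were summed per library, and 11638 genes with at least 10 UMIs in at least 2 of the 4 libraries were tested with edgeR's quasi-likelihood test. A gene was called at a Benjamini-Hochberg false discovery rate (FDR) below 0.05 and a fold change above 1.5. By these limits 168 genes (1.44% of those tested) were higher and 191 (1.64%) were lower in the ileum than in the duodenum. All 359 moved the same way in both genotypes, as did 71.2% of all genes tested. Most called genes were of low level, since 120 of the higher and 122 of the lower genes stayed under 10 CPM in the segment where they were higher, and 29 and 30 passed the count filter through that segment alone. Changes above 4-fold were found for 27 higher and 33 lower genes. DESeq2 called 93 and 110 genes. The cell filter of the study, which sets no minimum of CD3 UMIs, gave 65 and 77 calls, of which 59 and 73 were among the 168 and 191. The jejunal libraries did not enter the test, and the mean of the 2 jejunal values lay between the duodenal and the ileal mean for 149 of the 168 higher and 177 of the 191 lower genes. For called genes that reached 30 CPM in both libraries of the higher segment, this held for 15 of 15 and 38 of 38.

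Among the called genes that reached 30 CPM, Tpm4, Lgals1 and Bcl3 rose most in the ileum. Tpm4, a tropomyosin of the actin cytoskeleton, stood at 14.8 CPM in the Btnl2-KO and 15.3 in the WT duodenum and at 39.4 and 37.0 in the ileum (log2 fold change 1.34 ± 0.07 SE, edgeR FDR 8.3e-07). Lgals1 (galectin-1) rose from 39.2 and 28.4 to 82.5 and 82.1 CPM. Bcl3, an atypical IκB protein that works in the nucleus with NF-κB, rose from 46.0 and 53.3 to 119 and 107 CPM. In each of these the ileal libraries lay above both duodenal ones, as for all 168 higher genes, and by more than the genotypes differed. Pim2, a kinase that promotes survival, rose from 136 and 130 to 267 and 260 CPM (log2 fold change 0.99 ± 0.04 SE, edgeR FDR 3.1e-07). Il7r, the receptor chain for IL-7, rose from 22.4 and 28.4 to 46.2 and 46.7 CPM. The transcription factor genes Batf (AP-1 family) and Tcf7 (TCF-1) rose less, by log2 fold changes of 0.60 and 0.59. Both fell short of the fold minimum when the ileal Btnl2-KO library was left out, with log2 fold changes of 0.49 for Batf and 0.58 for Tcf7. The other genes of this group, Gm19705, Tmem108, Tagln2, Gadd45b, Plac8, Vim (vimentin), Rgs10 and Mylip, rose by log2 fold changes of 0.65 (Mylip) to 0.92 (Gm19705).

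**Figure D1:**
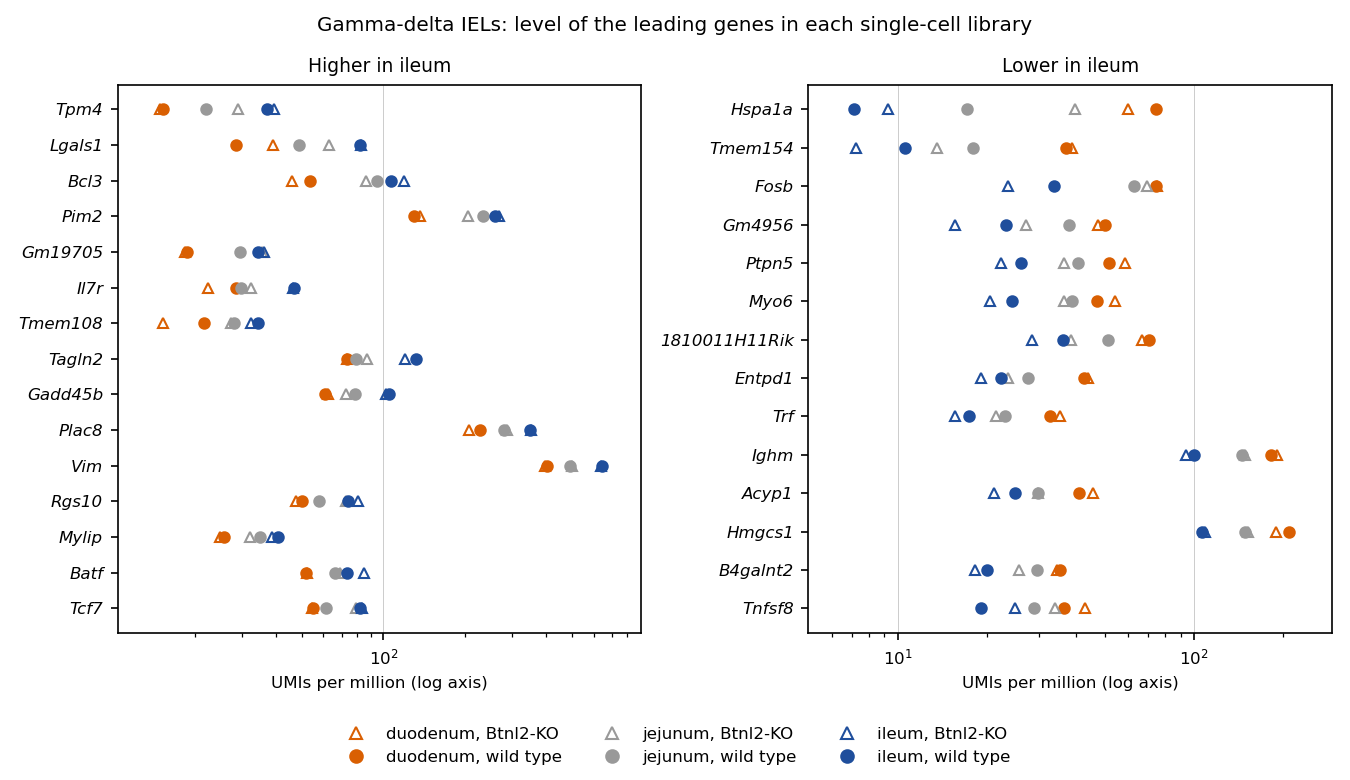
Level of 15 leading genes higher and 14 lower in the ileum in each of the 6 single-cell libraries, in CPM on a log axis. Colours mark the segment, triangles Btnl2-KO and circles WT. The ileal symbols lie to the right of the duodenal ones for every gene of the left panel and to the left for every gene of the right panel, as the choice of genes requires, and for Hspa1a they lie at 9.28 and 7.15 against 59.7 and 74.4.

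Among the called genes that reached 30 CPM, the largest decreases in the ileum were those of Hspa1a, which encodes the inducible chaperone HSP70, and of Tmem154, a membrane protein gene. Hspa1a fell from 59.7 CPM in the Btnl2-KO and 74.4 in the WT duodenum to 9.28 and 7.15 in the ileum (log2 fold change -3.01 ± 0.12 SE, edgeR FDR 3.1e-07). Tmem154 fell from 38.9 and 36.8 to 7.24 and 10.6 CPM (log2 fold change -2.11 ± 0.12 SE, edgeR FDR 1.4e-06). Both changes were several times the difference between genotypes within a segment. Fosb, an AP-1 subunit, fell from 75.2 and 74.2 to 23.5 and 33.6 CPM. Ptpn5, a tyrosine phosphatase, fell from 58.5 and 51.6 to 22.3 and 26.1 CPM. Myo6, an actin motor, fell from 54.1 and 47.1 to 20.5 and 24.4 CPM. Entpd1 (CD39), which removes phosphates from extracellular ATP and ADP, fell from 43.9 and 42.6 to 19.1 and 22.3 CPM. Trf (transferrin), the iron carrier of plasma, fell from 35.2 and 32.5 to 15.7 and 17.4 CPM. For all of them the segments did not overlap, as was true of all 191 lower genes. Of all genes tested 29.9% had the ileum below the duodenum without overlap. Further genes of this group were Gm4956, 1810011H11Rik, Ighm, Acyp1, Hmgcs1, B4galnt2 and Tnfsf8 (CD30 ligand), with log2 fold changes of -0.84 (Tnfsf8) to -1.35 (Gm4956).

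Hmgcs1 belongs to cholesterol synthesis, whose enzymes were lower in the ileum at nearly every step examined. Cells make cholesterol from acetyl-CoA through mevalonate and squalene. When sterols are scarce in the endoplasmic reticulum, SREBP2 is released to the nucleus and turns on this pathway, and when they are plentiful LXR turns on export genes. Of 26 measured genes in the list of lipid metabolism, 6 fell in the ileum, among them Hmgcs1, Sqle, Idi1 and Fasn, 1 rose, namely Abcg1, and 19 were not called, against 1.64 and 1.44% of all genes tested. The median log2 fold change of the list was -0.09, against -0.01 over all genes tested.

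Hmgcs1, HMG-CoA synthase, stood at 189 CPM in the Btnl2-KO and 208 in the WT duodenum, at 152 and 148 in the jejunum, and at 109 and 106 in the ileum (log2 fold change -0.89 ± 0.05 SE, edgeR FDR 1.4e-06). Sqle, squalene epoxidase, fell from 87.4 and 80.6 in the duodenum to 50.4 and 53.4 CPM in the ileum, and Idi1, which isomerizes the isoprene unit, from 108 and 112 to 66.4 and 69.6. Fasn, which makes fatty acids, fell from 57.2 and 51.6 to 35.9 and 34.2 CPM. Its call was lost when the duodenal Btnl2-KO library was left out and when cells were thinned to equal depth. Abcg1 and Mylip, both known as LXR targets, moved the other way. Abcg1, a cholesterol exporter, rose from 13.8 and 14.1 to 21.7 and 22.6 CPM (log2 fold change 0.66 ± 0.08 SE, edgeR FDR 0.00042), and Mylip, a ubiquitin ligase, rose from 24.9 and 25.6 to 38.6 and 40.8 CPM (log2 fold change 0.65 ± 0.06 SE, edgeR FDR 8.8e-05).

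The pathway was then followed enzyme by enzyme over 18 enzymes, a set written down after these values were seen, which is therefore given as a description. Of the 18, 17 were lower in the ileum at an FDR below 0.05 at any fold, where 6.2% of all genes tested were, and 10 of them passed the fold minimum. Their log2 fold changes ran from -0.89 (Hmgcs1) to 0.05 (Ebp), with a median of -0.64. Fdps, farnesyl diphosphate synthase, was at 304 and 323 CPM in the duodenum, 238 and 243 in the jejunum and 193 and 188 in the ileum. Msmo1, a sterol monooxygenase, was at 124 and 127, 93.0 and 92.5, and 73.7 and 74.2 CPM. Both thus fell stepwise along the gut in either genotype. For 17 of the 18 enzymes both duodenal libraries lay above both ileal ones and both jejunal libraries lay between, and 29.9% of all genes tested had the ileum below the duodenum without overlap. The exception was Ebp, a sterol isomerase, at 72.5 and 73.6 CPM in the duodenum and 75.9 and 75.3 in the ileum. Summed over the 18 enzymes, the level was 1604 and 1655 CPM in the duodenum, 1302 and 1293 in the jejunum, and 1059 and 1055 in the ileum.

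**Figure D2:**
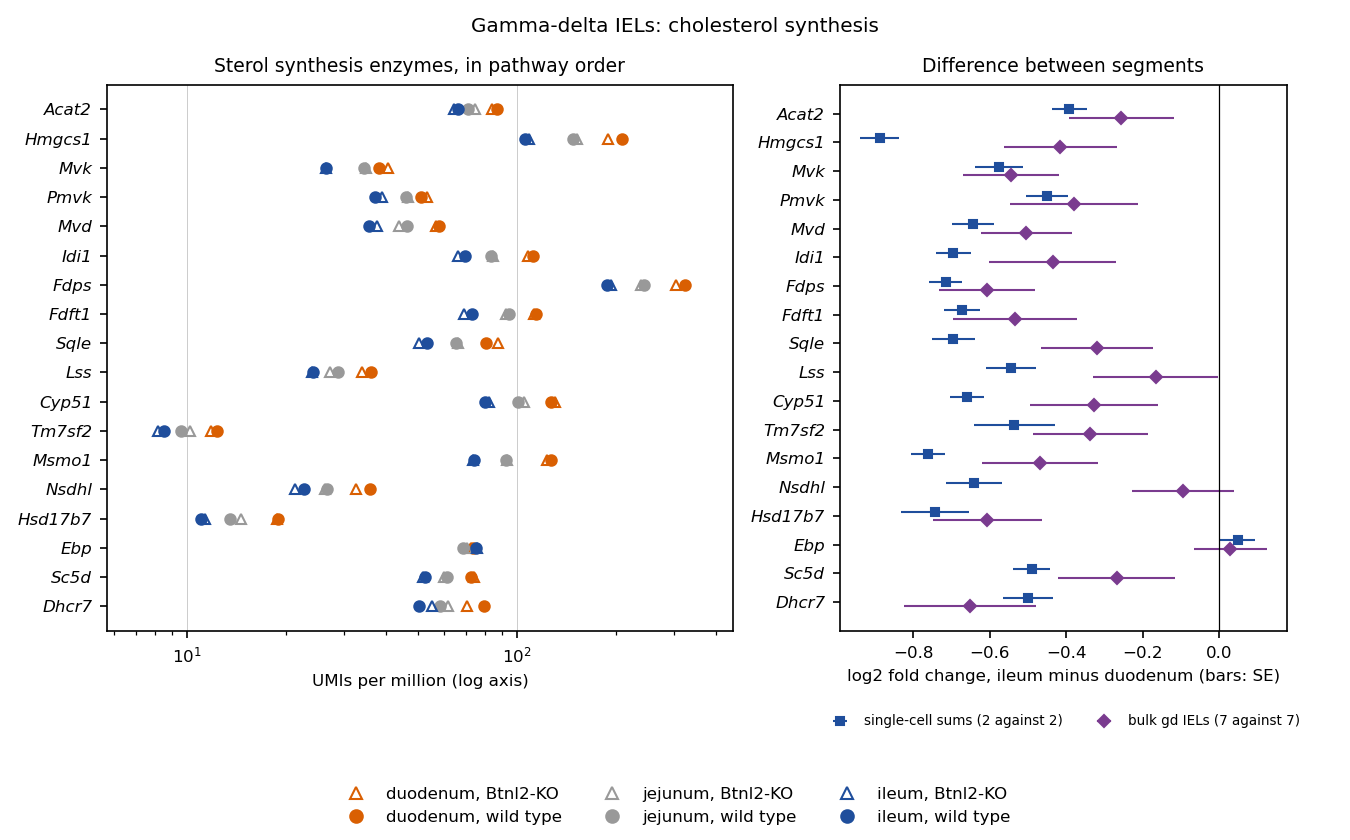
Left, CPM of 18 sterol synthesis enzymes in the 6 single-cell libraries on a log axis, in pathway order, with colours for segments, triangles for Btnl2-KO and circles for WT. Right, log2 fold change of ileum over duodenum with its SE in the single-cell sums (squares, 2 against 2 libraries) and in the bulk γδ IEL libraries (diamonds, 7 against 7), where 17 of 18 enzymes lie below 0 in each.

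The promoter of Hmgcs1 is shown because it holds the sequence through which SREBP2 is known to act. It spans chr13:119690101-119690400 on the plus strand of GRCm38.p6 (RefSeq), from 250 bases before to 50 after the annotated start of the gene. Capitals mark 1 match to the sterol regulatory element TCACNCCAC and 4 to the CCAAT box, which is read here on the other strand.
Hmgcs1: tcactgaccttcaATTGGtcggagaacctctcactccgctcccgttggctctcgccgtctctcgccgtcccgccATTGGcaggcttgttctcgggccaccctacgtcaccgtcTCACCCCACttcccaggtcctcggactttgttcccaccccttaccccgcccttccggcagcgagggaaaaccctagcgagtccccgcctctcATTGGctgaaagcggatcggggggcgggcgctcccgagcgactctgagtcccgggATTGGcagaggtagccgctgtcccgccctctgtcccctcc
Both strands were searched. The TCACNCCAC letters occurred in 1.24% of 32851 promoters of this length and those of the CCAAT box in 37.4%. Of the 18 enzymes, 15 had a promoter in the table, 1 of them with the first motif (Hmgcs1) and 14 with the second. A match in these windows is a description of the letters only.

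The same enzymes were read in the epithelium around the γδ IELs. In 5 bulk libraries of WT intestinal epithelial cells (IECs), 3 of the duodenum and 2 of the ileum, from mice given as 7 weeks old in the labels, the mean CPM of 14 of the 18 enzymes was higher in the ileum, against 48% of 11041 genes with a value in both cell types. For 4 of the 18 every ileal library lay above every duodenal one, against 15.1% of these genes. No test was run on the IECs. Hmgcs1 stood at 75.1 to 167 CPM in duodenal and at 201 to 239 in ileal IECs. For Sc5d, a sterol desaturase, both ileal IEC libraries lay below the duodenal ones, where 16.9% of genes did, as in the γδ IELs.

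Receptors of natural killer cells, through which γδ IELs sense stressed cells and MHC class I, changed in 8 of 22 measured members. Of these 7 rose (1.44% of all genes tested did), 1 fell (1.64%), and 14 members were not called. At any fold, 10 were higher and 3 lower at an FDR below 0.05. The median log2 fold change was 0.45, against -0.01 over all genes tested. Klrk1 (NKG2D), an activating receptor for stress ligands, stood at 3.74 CPM in the Btnl2-KO and 4.74 in the WT duodenum and at 18.6 and 11.4 in the ileum (log2 fold change 1.84 ± 0.22 SE, edgeR FDR 0.00032). Klrc1 (NKG2A), an inhibitory receptor, rose from 11.8 and 14.04 to 29.0 and 24.9 CPM. In the WT jejunum Klrk1, at 4.29 CPM, and Klrc1, at 11.3, lay below their WT duodenal values. Klra3, of the Ly49 family, rose from 16.3 and 13.9 to 23.3 and 23.2 CPM. The duodenal and ileal values did not overlap for any of these, nor for any of the 168 higher genes. Of all genes tested 28% had the ileum above the duodenum without overlap. Klrc2, Klra1, Klra8 and Ncr1 (NKp46) were called as well but stayed at or below 2.30 CPM in every library, and all 4 calls were lost under the cell filter of the study. Those of Klrc2, Klra8 and Ncr1 were also lost without the duodenal WT library and with DESeq2. Ly49 genes share much of their sequence, so reads could be assigned to the wrong member.

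The member that fell was Fcgr3 (CD16), an Fc receptor that signals through ITAM adaptors, from 21.98 and 18.9 to 10.8 and 10.1 CPM (log2 fold change -0.96 ± 0.10 SE, edgeR FDR 0.00015). Tyrobp (DAP12), an ITAM adaptor that pairs with activating receptors, fell from 1328 and 1236 to 706 and 732 CPM (log2 fold change -0.84 ± 0.04 SE, edgeR FDR 8.3e-07). A Tyrobp UMI was found in 56.9 and 51.7% of duodenal and 44.2 and 39.4% of ileal cells, and in 3 of 20, 1 of 23, 2 of 14 and 4 of 29 barcodes without a CD3 UMI. Of 13 measured genes of the ITAM list, 1 fell (Tyrobp) and 1 rose, against 1.64 and 1.44% of all genes tested. The one that rose was Sh2d1a (SAP), an adaptor of SLAM receptors, from 9.66 and 10.3 to 19.4 and 17.2 CPM. Slamf6, a SLAM receptor named after its values were seen, rose from 3.69 and 4.47 to 9.76 and 8.30 CPM.

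T cell surface genes rose or were not called. Of 16 measured, 7 rose and 9 were not called, where 1.44% of all genes tested rose. The median log2 fold change of the list was 0.45, against -0.01 over all genes tested. Ly6a (Sca-1) rose from 1.02 and 1.76 to 7.01 and 8.80 CPM (log2 fold change 2.48 ± 0.23 SE, edgeR FDR 5.1e-05). Cd8b1, the β chain of CD8 that CD8αα cells lack, rose from 16.5 and 20.9 to 28.2 and 32.6 CPM, and Cd2, an adhesion receptor, from 4.80 and 7.58 to 10.1 and 11.4. Cd44, Cd5, Il2ra and Cd4 were the others. The 5 measured αβ T cell genes all had log2 fold changes above 0 (0.47 to 2.45), as did 5631 of all 11638 genes tested. Of the 5, 3 were called (Cd4, Cd8b1 and Cd5). Foxp3, also in the list but below the count filter, had 8 and 7 UMIs in the duodenum and 4 and 6 in the ileum. The summed level of the list, with Foxp3, was 19.6 and 25.4 CPM in the duodenum and 34.0 and 38.9 in the ileum. Cd4 UMIs numbered 3 and 3 in the duodenum and 19 and 18 in the ileum. Their part in the other T cell results was not tested.

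Of 15 measured genes in the list of inhibitory receptors and related genes, 3 rose, 1 fell and 11 were not called. Of all genes tested 1.44% rose and 1.64% fell. Ctla4, which competes with CD28 for its ligands, stood at 7.18 and 9.21 CPM in the duodenum, 14.6 and 17.6 in the jejunum and 21.6 and 23.4 in the ileum (log2 fold change 1.45 ± 0.11 SE, edgeR FDR 1.3e-05). Pdcd1 (PD-1) rose from 5.77 and 6.73 to 13.1 and 11.5 CPM, and Havcr2 (TIM-3) from 2.47 and 3.79 to 4.71 and 5.55. Entpd1, an enzyme gene rather than a receptor gene, was the one that fell. Icos, a costimulatory receptor named after its values were seen, rose from 1.65 and 1.99 to 4.64 and 3.80 CPM.

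Cytokine genes and their receptors were changed in few members. Of 15 measured cytokine and chemokine genes 3 rose and 12 were not called, where 1.44% of all genes tested rose. Ifng (interferon γ) rose from 17.8 and 17.2 to 29.0 and 26.6 CPM (log2 fold change 0.67 ± 0.08 SE, edgeR FDR 0.00026). Il2 rose from 0.874 and 1.13 to 2.26 and 2.30 CPM, and Il10 was counted with 1 and 0 UMIs in the duodenum and 12 and 13 in the ileum. Il10 thus passed the count filter through the ileum alone. Of 20 cytokine receptor genes 17 were not called and 3 rose, Il7r and both chains of the receptor for IL-18. Il18rap rose from 0.582 and 0.632 to 2.08 and 2.25 CPM and Il18r1 from 0.534 and 0.135 to 1.82 and 1.15. Socs3, the feedback inhibitor that STAT3 induces, was named after its values were seen. It rose from 10.1 and 9.93 CPM in the duodenum over 23.1 and 18.4 in the jejunum to 30.6 and 29.5 in the ileum (log2 fold change 1.58 ± 0.08 SE, edgeR FDR 6.8e-07). Its promoter (chr11:117969317-117969616, minus strand, GRCm38.p6, RefSeq) is shown because it holds the letters TTCNNNGAA, the STAT motif, at 1 place in capitals, which 8.3% of all promoters of this length did on either strand.
Socs3: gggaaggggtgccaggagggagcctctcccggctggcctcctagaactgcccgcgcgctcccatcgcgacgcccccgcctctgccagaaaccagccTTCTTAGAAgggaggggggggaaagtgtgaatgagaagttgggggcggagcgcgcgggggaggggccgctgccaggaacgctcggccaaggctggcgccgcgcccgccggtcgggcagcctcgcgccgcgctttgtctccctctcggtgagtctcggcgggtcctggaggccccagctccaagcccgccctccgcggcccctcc
Of 40 interferon-induced genes 1 rose (Iigp1, 0.728 and 0.587 to 1.45 and 1.35 CPM, a call lost whenever 1 library was left out) and 39 were not called. Log2 fold changes below 0 were found for 28 of the 40, and for 6007 of all 11638 genes tested. At any fold, 2 were higher and 5 lower at an FDR below 0.05, against 6.74 and 6.2% of all genes tested.

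**Figure D3:**
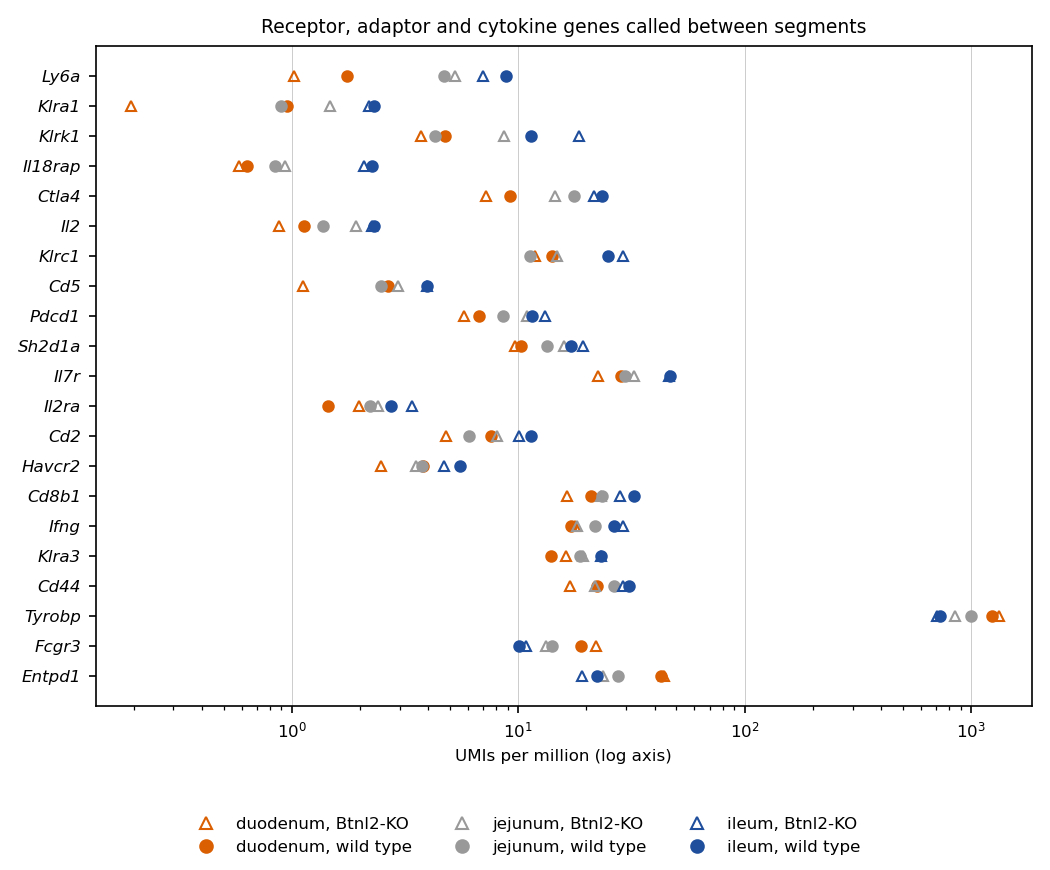
Level of the receptor, adaptor and cytokine genes called between segments that reached a mean of 2 CPM in a segment, in the 6 single-cell libraries, on a log axis. Colours mark the segment, triangles Btnl2-KO and circles WT. Ileal symbols lie to the right except for Entpd1, Fcgr3 and Tyrobp, which fell.

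Homing and transcription factor genes added few calls. Of 25 homing genes 3 rose, where 1.44% of all genes tested did. Among them were Ccr7 and S1pr1, which guide recirculation through lymph nodes. Both stayed at or below 4.38 CPM, and their calls were lost with DESeq2. Of 37 transcription factor genes 4 rose (Tcf7, Batf, Eomes and Zeb2) and 33 were not called. Satb1, a chromatin organizer of T cells named after its values were seen, rose from 5.34 and 5.87 to 10.4 and 9.05 CPM.

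Genes of cell survival were divided. Bcl2, which blocks mitochondrial death, stood at 477 and 445 CPM in the duodenum, 302 and 342 in the jejunum and 256 and 287 in the ileum (log2 fold change -0.77 ± 0.06 SE, edgeR FDR 8.1e-06). Bcl2l1 (BCL-XL), also protective, fell from 19.2 and 17.4 to 10.5 and 10.1 CPM, and Bcl2l11 (BIM), which opposes both, from 70.5 and 61.6 to 42.5 and 42.7. Fas, a death receptor, rose from 15.3 and 15.8 to 26.1 and 23.1 CPM. Of the 21 measured genes of this list, these 4 were called, where 3.08% of all genes tested were. Ccnd2 (cyclin D2), which drives entry into the cell cycle, fell from 428 and 401 to 270 and 260 CPM. It was the only one called of 30 cell cycle genes, against the same 3.08% of all genes tested. Frmd5 and Gcsam, named after their values were seen, fell from 19.2 and 14.4 to 5.46 and 4.002 and from 11.6 and 10.2 to 3.08 and 3.20 CPM.

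No member was called in 7 lists, those of γδ IEL identity, cytolysis, MHC class I, glycolysis, oxidative phosphorylation, microbial sensing and targets of the aryl hydrocarbon and retinoid receptors. By edgeR 46 of their 100 measured genes had an unadjusted p below 0.05, 23 were higher and 4 lower at an FDR below 0.05 at any fold (6.74 and 6.2% of all genes tested), DESeq2 and limma-voom called 0, and the fit with genotype as block called 1. Gzmb stood at 5939 and 6144 CPM in the duodenum and 6716 and 7524 in the ileum (log2 fold change 0.24 ± 0.05 SE, edgeR FDR 0.013), and Gapdh, a glycolytic enzyme, at 1127 and 1099 in the duodenum and 1133 and 1266 in the ileum. The largest difference in these lists was a log2 fold change of 0.64. A further list, of mast cell, erythroid and stromal genes, had 4 measured members and none called, and is outside these counts.

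Of 12 measured heat shock genes 2 were called, the neighbouring copies Hspa1a and Hspa1b, and both fell, where 1.64% of all genes tested did. At any fold, 4 members were lower and 1 was higher at an FDR below 0.05, and the median log2 fold change was -0.06. Hspa1b fell from 23.8 and 28.3 CPM to 3.53 and 3.10 (log2 fold change -2.96 ± 0.13 SE, edgeR FDR 3.1e-07). The genes lie at chr17:34969359-34972156 and chr17:34956429-34959238 (GRCm38.p6), and because their sequences are nearly identical the split of reads between them is uncertain. Both promoters are shown for this likeness, from 250 bases before to 50 after the start on the minus strand (chr17:34972107-34972406 and chr17:34959189-34959488, RefSeq). They were identical at 296 of 300 positions, and each held 1 match to the heat shock element GAANNTTC, in capitals, letters that 7.86% of all promoters held.
Hspa1a: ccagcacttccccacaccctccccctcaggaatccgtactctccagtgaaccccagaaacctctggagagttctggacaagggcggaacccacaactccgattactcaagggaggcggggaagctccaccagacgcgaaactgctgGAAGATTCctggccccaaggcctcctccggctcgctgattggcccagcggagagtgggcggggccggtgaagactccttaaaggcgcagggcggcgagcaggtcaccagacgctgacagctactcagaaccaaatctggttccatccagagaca
Hspa1b: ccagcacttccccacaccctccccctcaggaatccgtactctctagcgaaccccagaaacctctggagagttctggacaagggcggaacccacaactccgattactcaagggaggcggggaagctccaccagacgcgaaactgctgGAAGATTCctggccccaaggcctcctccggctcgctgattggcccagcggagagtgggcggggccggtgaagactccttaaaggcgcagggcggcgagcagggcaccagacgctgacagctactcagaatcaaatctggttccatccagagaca

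UMIs of Hspa1a and Hspa1b were captured in a minority of cells, which sets no limit on the cells that express these genes. A UMI of Hspa1a or Hspa1b was found in 16.3 and 19.2% of duodenal cells from Btnl2-KO and WT mice, in 11.6 and 5.90% of jejunal cells and in 3.80 and 2.70% of ileal cells. With each cell thinned to 3500 UMIs, Hspa1a was found in 9.92% (95% Wilson interval 8.94 to 11.002) and 11.3% (10.3 to 12.4) of duodenal and in 1.86% (1.499 to 2.31) and 1.37% (1.03 to 1.83) of ileal cells, where the unthinned shares were 11.4, 13.4, 2.53 and 1.67%. The intervals of the segments did not overlap, and they cover counting error only. Among barcodes without a CD3 UMI, which can express the gene too, 2 of 20, 2 of 23, 2 of 14 and 3 of 29 held an Hspa1a UMI. The jejunal libraries stood apart from each other, at 39.6 CPM for Btnl2-KO and 17.2 for WT mice. When all cells with an Hspa1a or Hspa1b UMI were left out, an alternative chosen after seeing the data, 161 higher and 179 lower genes were called, of which 144 and 162 were among the 168 and 191.

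Immediate-early genes, which T cell stimulation and handling of tissue are both known to induce, were called in 3 of 28 members. Over all genes tested 3.08% were called. Fosb and Jun fell, Jun from 329 and 309 to 163 and 203 CPM (log2 fold change -0.81 ± 0.08 SE, edgeR FDR 9e-05). Ier3 rose from 0.340 and 0.451 to 0.854 and 1.20 CPM, and its call was lost under 8 alternatives. The summed level of the list was 4414 and 4003 CPM in the duodenum and 3850 and 4139 in the ileum, so the segments overlapped. The labels give no order or time of processing for the segments, and the part of handling in these changes was not tested.

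For other genes the share of cells followed the level. Thinned to equal depth, Tmem154 was found in 11.9 and 11.9% of duodenal and 2.28 and 3.36% of ileal cells, against 16.6, 16.8, 3.89 and 4.97% before thinning and 0 of 20, 1 of 23, 2 of 14 and 3 of 29 barcodes without CD3. Ctla4 was found in 2.23 and 2.86% of duodenal and 6.98 and 7.42% of ileal cells (3.33, 4.30, 10.2 and 10.3% unthinned), and in 0 of 20, 0 of 23, 0 of 14 and 0 of 29 barcodes without CD3. Hmgcs1 was found in 42.5 and 44.5% of duodenal and 26.4 and 27.3% of ileal cells (50.8, 54.4, 38.6 and 36.4% unthinned), and in 8 of 20, 8 of 23, 4 of 14 and 15 of 29 barcodes without CD3, which can express the gene too. The median depth of the barcodes without CD3 was 7335 to 12549.5 UMIs, above that of the cells.

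**Figure D4:**
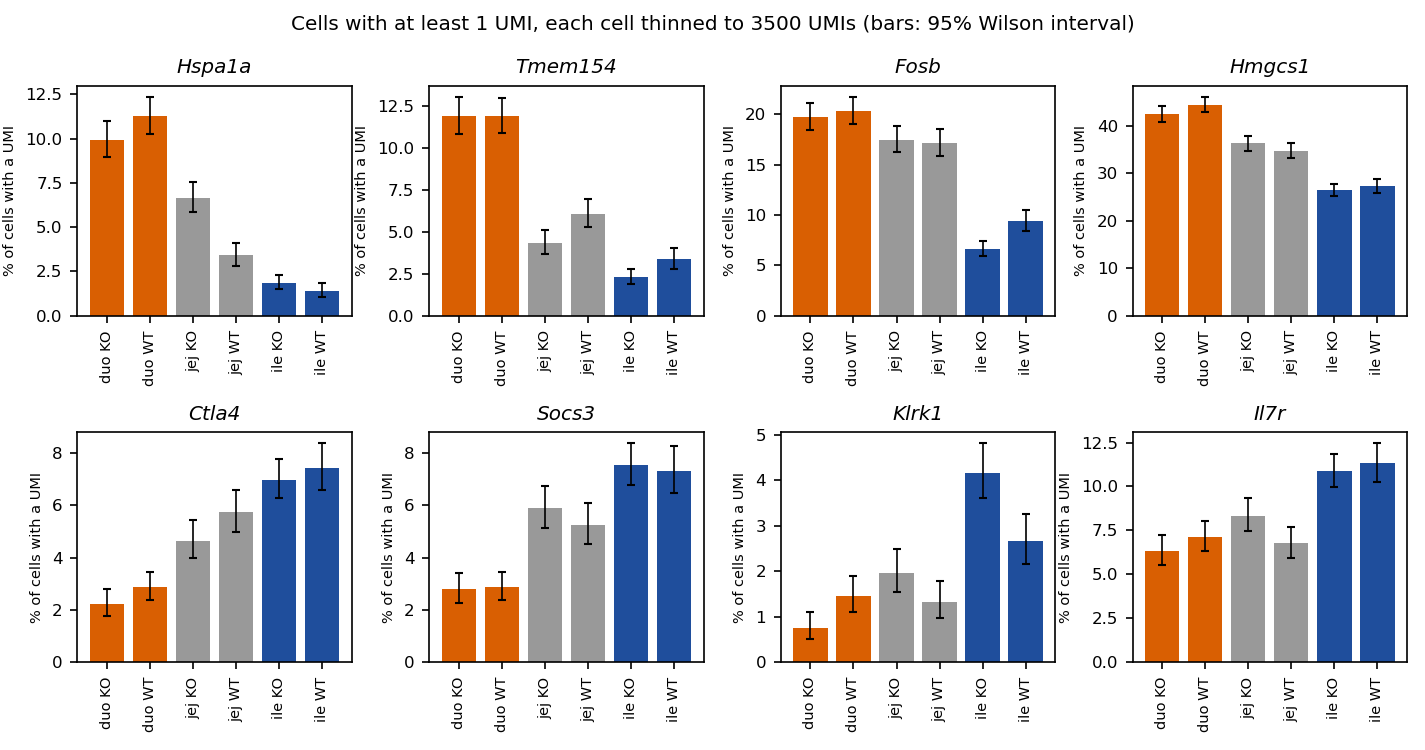
Percent of cells with at least 1 UMI of 8 genes in each library after each cell was thinned to 3500 UMIs, with 95% Wilson intervals for counting error, bars coloured by segment. Hspa1a, Tmem154, Fosb and Hmgcs1 are found in fewer ileal than duodenal cells and Ctla4, Socs3, Klrk1 and Il7r in more, with Hspa1a at 9.92 and 11.3% of duodenal and 1.86 and 1.37% of ileal cells.

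Transcripts known from epithelial cells were called in both directions. Fabp6, the ileal bile acid binding protein, was counted with 0 UMIs in both duodenal libraries and with 251 and 162 in the ileum, which is at least 59.8-fold higher against a floor of 3 UMIs per library. It was found in 0 of 3931 and 0 of 3953 duodenal cells, which allows a share of cells with a captured UMI of up to 0.0763% and sets no limit on cells that express the gene. It was found in 3.39 and 3.05% of ileal cells, but in 2 of 14 and 16 of 29 ileal barcodes without CD3. Rbp2, a retinol binding protein of the proximal gut, fell from 13.9 and 14.5 to 0.891 and 1.30 CPM, with 14 of 20 and 19 of 23 duodenal barcodes without CD3 holding a UMI against 5.72 and 3.44% of cells. Fabp1, Apoa1, Apoa4, Sis, Apoc3, Gsta1, Adh6a and Guca2b were lower in the ileum as well, although Guca2b was listed as a gene of distal enterocytes. Under the cell filter of the study the calls of these 8 genes, of Fabp6 and of Rbp2 were lost, and Sis and Guca2b turned to log2 fold changes of 0.49 and 0.20. Fabp1 stood at 206 and 254 UMIs in the duodenum and 2 and 11 in the ileum. In both duodenal libraries the share of each of these genes in cells was below that in barcodes without CD3, which were deeper. The part of free epithelial RNA in these values was not tested.

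Paneth cell genes rose, with 8 of 12 measured members of the Paneth and goblet list called, where 1.44% of all genes tested rose. All 8 calls were lost under the cell filter of the study. Defa21, Defa22, Defa5, Itln1 and Mptx2 had under 10 UMIs in both duodenal libraries. They passed the count filter through the ileum alone, so they could not have been called lower. Defa24, an α-defensin, stood at 1.46 and 2.44 CPM in the duodenum, 60.5 and 23.3 in the jejunum and 10.1 and 10.6 in the ileum, so the ileum was not the highest segment. Defensin genes are near-identical copies, and the split of reads between them is uncertain. The summed level of the list was 23.1 and 19.4 CPM in the duodenum and 40.3 and 45.3 in the ileum. That of the general epithelial list was 305 and 307 CPM against 216 and 271, although γδ IELs contribute to it through Epcam and Cdh1. Of its 23 measured members 4 were higher (Fabp2, Reg3b, Reg3g and Spink4) and 5 lower, against 1.44 and 1.64% of all genes tested. Of the called genes with an IEC value, 21 of 160 higher (13.1%) and 28 of 176 lower genes (15.9%) were at least 10 times as high in IECs as in the sorted cells, against 6.07 and 5.66% of all genes tested. Among those that reached 30 CPM these were 0 of 15 and 1 of 36, the latter B4galnt2, a glycosyltransferase gene at 34.5 and 35.2 CPM in the duodenum and 18.3 and 20.01 in the ileum. The part of epithelial RNA in the changes of lower genes was not tested gene by gene.

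Immunoglobulin heavy chain genes fell without other B cell genes. Ighm stood at 191 and 182 CPM in the duodenum, 148 and 145 in the jejunum and 93.5 and 99.5 in the ileum (log2 fold change -0.95 ± 0.05 SE, edgeR FDR 6.8e-07), and Ighd and Igha fell with it. Under the cell filter of the study Igha turned to a log2 fold change of 0.41. An Ighm UMI was found in 47.6 and 48.0% of duodenal and 26.6 and 27.4% of ileal cells, against 3 of 20, 1 of 23, 1 of 14 and 4 of 29 barcodes without CD3. Ms4a1 (CD20), Pax5, Ebf1 and Mzb1, which define B and plasma cells, had 0 UMIs in every library, and Cd79a had 1 to 12. Cd79b, the only other gene of the list tested, had 1909 and 2037 UMIs in the duodenum and 2483 and 1909 in the ileum. It was not called (log2 fold change 0.02). The summed level of the list, which includes Cd79b, was 307 and 299 CPM against 193 and 204. Of 8 measured myeloid genes 1 rose (Cd68) and 2 fell (Itgam and H2-Aa), against 1.44 and 1.64% of all genes tested. Their sum was 336 and 355 CPM against 331 and 336, while Lyz2, Csf1r and the C1q genes had 0 to 6 UMIs. Innate lymphoid genes rose in 2 of 6 measured members, Ncr1 and Eomes, against 1.44% of all genes tested. Ncr1, with 6 and 0 UMIs in the duodenum, passed the count filter through the ileum alone. When every cell with 3 or more UMIs of these lists was left out, 979 to 1489 cells per library remained and 76 higher and 114 lower genes were called. The lists hold genes that γδ IELs express, such as Ighm, Itgax and Kit.

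The larger portions of the sorts gave 14 bulk libraries of γδ IELs, 3 of Btnl2-KO and 4 of WT mice per segment, at 13444958 to 19703271 counts. By the study's methods they come from the same mice, which the labels here give as 10 weeks old, and they are no independent animals. In them a lower value can mean fewer cells of a type or less RNA per cell, which cannot be told apart. With genotype as a covariate, 129 of 12585 genes (1.03%) were higher and 194 (1.54%) lower in the ileum. Of the 168 genes higher in single cells 145 were measured in bulk, 136 of them had the same sign and 50 were called. Of the 191 lower genes 166 were measured, 154 had the same sign and 34 were called. Over all genes measured in bulk 54.6% had a log2 fold change above 0. The opposite was called for 1 gene in each direction. Fabp2, an epithelial fatty acid binding protein, rose in single cells from 11.1 and 15.9 to 17.7 and 27.9 CPM and fell in bulk from 202 to 1025 (median 429) to 64.8 to 258 (median 95.3). H2-Aa, a class II MHC gene, fell in single cells and rose in bulk. Under the cell filter of the study the single-cell log2 fold changes turned to -0.023 for Fabp2 and 0.068 for H2-Aa.

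**Figure D5:**
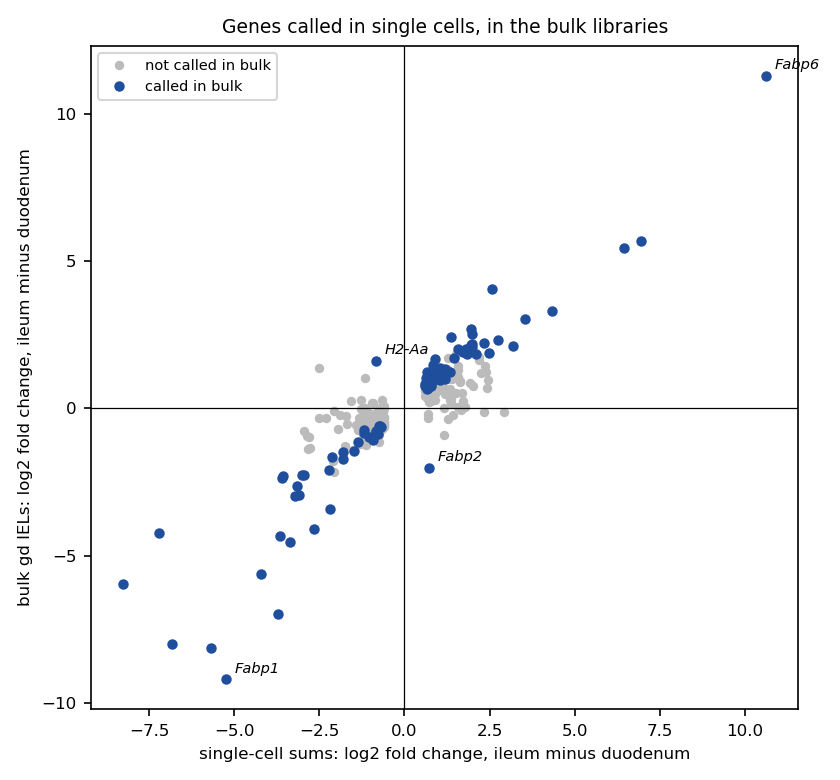
Log2 fold change of ileum over duodenum in the single-cell sums (x axis, 2 against 2 libraries) and in the bulk γδ IEL libraries (y axis, 7 against 7) for the called genes measured in both. Dark points were also called in bulk. Of 145 genes right of 0, 136 lie above 0, and of 166 left of 0, 154 lie below, with Fabp2 and H2-Aa in the other quadrants.

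Of the called genes that reached 30 CPM in single cells and were measured in bulk, 3 of 15 higher and 9 of 36 lower ones were called in bulk too. Tmem154 stood at 32.8 to 47.0 CPM (median 38.1) in 7 duodenal and at 6.96 to 18.6 (median 12.9) in 7 ileal bulk libraries, so the groups did not overlap (log2 fold change -1.65 ± 0.21 SE, edgeR FDR 0.00017). Socs3, of lower level, stood at 5.05 to 8.85 (median 5.76) and 14.7 to 37.5 CPM (median 28.4), again without overlap (log2 fold change 2.00 ± 0.25 SE, edgeR FDR 0.00015). Ctla4, also of lower level, did not overlap either, at 1.52 to 6.17 (median 3.21) and 9.86 to 13.5 CPM (median 11.4). How many of all genes measured in bulk lie without overlap was not counted, here or for the genes below. Hspa1a stood at 34.5 to 158 (median 88.6) and 5.57 to 42.9 CPM (median 10.7), where the groups overlapped (log2 fold change -2.25 ± 0.49 SE, edgeR FDR 0.016). Tpm4, Bcl3, Pim2, Trf, Myo6, Ptpn5, Gm4956 and Tnfsf8 were called in the same direction as in single cells. Among those not called in bulk, the log2 fold change was 1.17 for Lgals1 (edgeR FDR 0.11), 0.81 for Il7r (0.059), 0.41 for Batf (0.48), -0.90 for Entpd1 (0.089) and -0.58 for Fosb (0.75).

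The sterol enzymes fell by less in bulk, where 17 of 18 had log2 fold changes below 0 with a median of -0.40, 12 had an unadjusted edgeR p below 0.05, and 2 were called. These were Fdps, from 449 to 630 CPM (median 515) in the duodenum to 280 to 427 (median 356) in the ileum, and Hsd17b7, a ketosteroid reductase, from 27.8 to 42.5 (median 37.7) to 16.7 to 29.1 (median 24.8). Fdps did not overlap between the segments, and Hsd17b7 did. Hmgcs1 overlapped, at 180 to 287 CPM in the duodenum and 125 to 223 in the ileum (log2 fold change -0.42 ± 0.15 SE, edgeR FDR 0.21). Abcg1 was called, at 18.8 to 27.0 and 27.6 to 44.9 CPM without overlap. Mylip was not called and overlapped, at 18.2 to 28.7 and 25.0 to 36.7 CPM (log2 fold change 0.34 ± 0.12 SE, edgeR FDR 0.19). Plac8 went the other way in bulk, with a log2 fold change of -0.33 ± 0.21 SE that was not called, and its level in IECs was 642 to 1541 CPM in the duodenum and 374 to 573 in the ileum. The summed level of the epithelial list was 6303 to 13509 CPM in duodenal and 3862 to 19189 in ileal bulk libraries. Its part in the bulk values was not tested beyond a fit with the list as covariate.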

How the data were processed

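γδ IELs of Btnl2-KO and WT mice were profiled with 10x 5′ single-cell libraries, and the authors deposited UMI counts per gene and barcode from Cell Ranger 2.2.0 on mm10 (GRCm38 in the submitters' processing notes). The deposited bulk tables of γδ IELs and IECs hold expected counts that the authors estimated with RSEM, and these were rounded. The labels name another library kit than the study's methods. Where a column matched no sample (1 column), it was left out, as were 27 vector rows that name no gene. UMIs were summed over kept cells per library and normalized by TMM (factors 0.979 to 1.02).

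Segments were compared with edgeR 4.0.16 in R 4.3.3 (quasi-likelihood, Benjamini-Hochberg), with a minimum of 10 UMIs in 2 libraries, or in bulk 10 counts in 6 libraries with genotype as covariate. The script was tested on simulated data. Each SE follows from the log2 fold change divided by the root of F. With 2 against 2 libraries an exact permutation test of a single value cannot go below 0.333, so none was used. No doublet caller was run, and the top 5% of cells by UMIs were left out as an alternative. For shares, cells were thinned to 3500 UMIs, leaving out shallower cells (3225, 3531, 4296 and 3277 remained for duodenum Btnl2-KO, duodenum WT, ileum Btnl2-KO and ileum WT). Libraries of 1 genotype came from the same mice in both segments, and the KO minus WT deviations correlated between segments (r = 0.19 across 7758 genes, which are not independent). The fit with genotype as replicate block called 187 and 215 genes.

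Named genes were the 15 with the largest change per direction that reached 30 CPM in both libraries of the higher segment, the called members of the gene lists, the 2 highest members of lists without a call, Btnl2 and the CD3 genes. The members and lists were chosen with earlier results of these data known. The text marks other genes as picked once their values were known. Motifs were searched in RefSeq promoters of GRCm38.p6 (32851 sequences).

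Alternatives were DESeq2 1.42.0, limma-voom (limma 3.58.1), relative log expression size factors, other count filters, all 6 libraries in one fit, each library left out, other cell filters (the one of the study, at most 10% mitochondrial UMIs, 10 CD3 UMIs), thinned cells, and for bulk no genotype term and the epithelial list as covariate. IECs were described without a test. Results for a few genes are not reported here.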

Additional observations from a re-analysis of the deposited data

Results flagged for a closer look

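In the bulk γδ IEL libraries, 58 groups of 7 values (a leading gene in a segment) were checked for a single library far from the others, and 5 were found, where chance gives about 1 in 20. In the duodenum Tcf7 stood at 70.6 CPM in 1 WT library. In the ileum the same Btnl2-KO library (replicate 2) stood far above the others for Lgals1 (134 CPM), Gm19705 (25.6 CPM), Tmem108 (13.1 CPM) and Batf (181 CPM). All 4 are genes higher in the ileum, and without that library 180 genes were called higher and 248 lower in bulk.

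Of the named genes, 2 moved in opposite directions in the genotypes, and this difference was not tested. The log2 ratio of ileum to duodenum in Btnl2-KO mice was -0.030 for Aim2, a DNA sensor, and -0.0075 for Pecam1, an endothelial adhesion gene, both near 0.

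LacZ, which is outside the tested genes, was counted in the kept cells of every Btnl2-KO library, with 16 duodenal, 8 jejunal and 20 ileal UMIs, and with 0 UMIs in the WT libraries.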

How the results depend on the processing

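Among the single-cell settings, the counts of higher and lower genes (168 and 191) moved by over 1.5 times in 4. DESeq2 called 93 and 110, the cell filter of the study without a CD3 minimum 65 and 77, leaving out cells with UMIs of other cell types 76 and 114, and no fold minimum 784 and 722. The causes were not tested, except that leaving out cells leaves fewer and that no fold minimum is a wider rule. Leaving out 1 library gave 129 to 161 higher and 141 to 218 lower genes. With genotype as replicate block 187 and 215 genes were called, 168 and 187 of them shared with the fit without it. In bulk (129 and 194) DESeq2 called 218 and 306 genes, the epithelial covariate 383 higher genes, no replicate block 148 and 177, and leaving out 1 library 92 to 180 and 151 to 248. Some single genes changed sign. Aim2 ran from -0.046 without the ileal WT to 0.069 without the ileal Btnl2-KO library, and went to -0.0014 under the study's cell filter, -0.047 without cells of other types, -0.0031 without the top 5% of cells, -0.031 thinned and -0.016 without Hspa1a or Hspa1b cells. Pecam1 ran from -0.22 to 0.29 with 1 library left out (-0.19 without the duodenal WT), and went to -0.039 without the top 5% of cells and -0.088 without Hspa1a or Hspa1b cells. Under the study's cell filter Fabp2 went to -0.023, Sis to 0.49, Guca2b to 0.20, Igha to 0.41 and H2-Aa to 0.068. In bulk the epithelial covariate turned Batf to -0.039 and B4galnt2 to 0.26. Over named genes and settings, single-cell calls kept their direction and side of the threshold in 2370 cases, were lost in 195 and gained in 4. Genes under 10 CPM carry few UMIs, and depth limits their folds.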
